A study of Homo sapiens with 6 samples.

Results

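The genes described here are 32 of the 58735 genes in the table. They belong to sterol and fatty acid synthesis, to its control by sterol regulatory element-binding proteins (SREBPs) and to sterol transport. They were taken from a list of symbols, matched by GENCODE 29 or current symbol to the Ensembl identifiers of the table, and all 32 were found. The list holds 8 genes of the early sterol steps, from acetyl-CoA to squalene, and 10 of the late steps, from squalene to cholesterol. A further 5 encode the sterol sensing and transport proteins, and 9 make, elongate or desaturate fatty acids. The reductase that follows HMG-CoA synthase was not analysed here. Expression was measured by paired-end RNA sequencing in HOK-16B, an immortalized human oral keratinocyte line. Before an inflammatory challenge, which all cells received per the series text, one group was treated with cannabidiol (CBD), a cannabis-derived cannabinoid that does not intoxicate, and the other with vehicle. Each group has 3 libraries, and no unchallenged cells were analysed here. The labels name no stimulus, dose or time. Nothing in them says whether each library came from its own culture. The p-values therefore reflect only how far these libraries spread, which may be technical. The free-text descriptions number the line differently in each sample, while the cell line tag gives HOK-16B for all 6.

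SREBPs are made as precursors in the membrane of the endoplasmic reticulum, bound to the escort protein SCAP. When membrane sterols are plentiful, INSIG proteins hold SCAP and its cargo in place. When sterols run low, SCAP carries the precursor to the Golgi, where proteases free the part that enters the nucleus and switches on the sterol and fatty acid genes. SREBF2 encodes the form that acts mainly on sterol genes and SREBF1 the forms that act mainly on fatty acid genes. In stratified epithelia such as skin and mouth, cholesterol and fatty acids supply growing membranes and the lipids of the surface barrier.

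SREBPs are known to act together with the factors NF-Y and Sp1 at promoters. RefSeq windows (GRCh38.p14, 250 bases before to 50 after the start) were given for 28 of the 32 genes, and not for ACAT2, FASN, FDFT1 and SQLE. They were searched on both strands for TCACNCCAC, a form of the sterol regulatory element, for TCACGTGA, an E-box that SREBPs can bind, for CCAAT, the NF-Y box, and for GGGCGG, the Sp1 box. The sterol element was in 1 of 28 windows (3.57%), against 1.15% of all 27305 promoters and 1.10% of those of tested genes. The E-box was in 1 of 28 (3.57%, against 1.04% and 2.09%). CCAAT was in 19 of 28 (67.9%, against 35.7% and 37.3%). GGGCGG was in 25 of 28 (89.3%, against 44.6% and 72.2%). A match is a description of letters and not a binding site. The windows below are the only ones with a sterol element (SREBF2) or E-box (INSIG1), and a pair of early sterol genes with CCAAT boxes, chosen after their values were seen because they lay on opposite sides of vehicle under CBD (HMGCS1 and MVK). Capitals mark the sterol element, the E-box and CCAAT on either strand, and Sp1 boxes are left in lower case. In these 4 windows no match overlapped one of another motif.
SREBF2: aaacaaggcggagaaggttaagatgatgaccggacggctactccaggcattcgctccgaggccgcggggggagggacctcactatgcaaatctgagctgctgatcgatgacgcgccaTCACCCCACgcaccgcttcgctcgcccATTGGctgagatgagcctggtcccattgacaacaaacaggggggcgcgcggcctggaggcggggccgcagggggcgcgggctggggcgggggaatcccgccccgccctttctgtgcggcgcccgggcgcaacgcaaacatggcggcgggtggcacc
INSIG1: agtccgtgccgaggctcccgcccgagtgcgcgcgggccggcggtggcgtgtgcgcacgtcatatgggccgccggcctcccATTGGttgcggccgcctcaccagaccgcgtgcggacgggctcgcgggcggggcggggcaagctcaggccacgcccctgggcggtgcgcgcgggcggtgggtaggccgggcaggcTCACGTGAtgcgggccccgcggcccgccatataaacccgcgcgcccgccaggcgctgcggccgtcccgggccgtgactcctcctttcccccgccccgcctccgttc
HMGCS1: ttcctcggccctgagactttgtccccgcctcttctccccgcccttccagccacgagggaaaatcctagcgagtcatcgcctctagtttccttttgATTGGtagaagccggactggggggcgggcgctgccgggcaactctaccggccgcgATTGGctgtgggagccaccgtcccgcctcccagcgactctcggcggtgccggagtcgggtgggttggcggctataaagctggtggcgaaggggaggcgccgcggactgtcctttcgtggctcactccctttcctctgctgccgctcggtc
MVK: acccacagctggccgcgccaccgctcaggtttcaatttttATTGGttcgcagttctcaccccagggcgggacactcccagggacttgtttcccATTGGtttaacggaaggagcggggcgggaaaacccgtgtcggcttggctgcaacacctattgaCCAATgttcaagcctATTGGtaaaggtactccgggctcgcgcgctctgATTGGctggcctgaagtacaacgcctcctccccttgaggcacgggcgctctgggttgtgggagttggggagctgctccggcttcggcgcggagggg
The windows lie at chr22:41832855-41833154 (plus strand) for SREBF2, chr7:155297628-155297927 (plus strand) for INSIG1, chr5:43313363-43313662 (minus strand) for HMGCS1 and chr12:109573544-109573843 (plus strand) for MVK. In SREBF2 the sterol element begins 133 bases before the start and a CCAAT box 106 bases before it. The E-box of INSIG1 begins 56 bases before the start. MVK has 5 CCAAT boxes and HMGCS1 has 2.

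Libraries held 18213784 to 22158614 fragments counted in genes. All 8 keratinocyte markers were expressed, with mean levels from 59.5 FPKM (fragments per kilobase of exon, scaled to library size) for TP63 upward. Their summed level was 9501 to 11021 FPKM in vehicle and 11471 to 11986 in CBD libraries. The markers did not move together. KRT5 and KRT14 were higher in every CBD library, and KRT6A and ITGA6 were lower in every one. KRT17, TP63, DSG3 and PERP overlapped between groups. The lists for leukocytes, endothelium and lipid-making sebaceous or adipose cells each summed to at most 0.296 FPKM in any library, with CD3E, ADIPOQ and MC5R at 0 in every library. The summed fibroblast list was 6.94 to 7.70 FPKM in vehicle and 8.94 to 8.99 in CBD, and of its 6 genes only COL1A1 reached a mean of 1 FPKM. The melanocyte list summed to 1.02 to 1.52 and 1.41 to 1.6 FPKM, with TYR at 0. The part of these marker levels in the results below was not tested. In bulk RNA, fewer cells of a type and less RNA per cell cannot be told apart.

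All 32 genes were expressed, and none passed the test for a difference. Their mean level over the 6 libraries ran from 463 FPKM for SCD, the stearoyl-CoA desaturase, and 226 FPKM for FASN, fatty acid synthase, to 3.54 FPKM for INSIG2. All 32 passed the level at which genes were tested, a mean FPKM of at least 1. Differences are fitted values of CBD minus vehicle on log2(FPKM + 1), a scale that understates the change of low genes. No gene of the 32 was called higher and none lower by limma (Benjamini-Hochberg adjusted p under 0.05 over 12517 genes, of which 0.256% were called higher and 0.0959% lower). Fitted differences were above 0 in 15 and below 0 in 17, against 47.4% and 52.6% of all genes. At an unadjusted p under 0.05, 8 were higher and 13 lower, against 15.4% higher and 16% lower of all genes, together 21 of 32 (65.6%) against 31.4%. With limma-voom on recovered fragments 2 were called higher and 5 lower, where 7.26% and 6.68% of all genes were. Without vehicle replicate 2 limma called 5 higher and 6 lower. That omission also raised the count over all genes, to 1260 higher and 1072 lower. The split over all genes, 32 higher and 12 lower as deposited, was 2 and 2 with libraries scaled to the same FPKM sum and 4 and 4 with a GC trend removed.

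The 3 CBD values lay above all 3 vehicle values in 10 of the 32 genes and below them in 14, together 75.0%. Of all genes tested, 18.7% lay apart upward and 21.9% downward, 40.7% in all. With 3 libraries against 3, such a separation gives an exact two-sided permutation p of 0.1, the smallest possible, so no gene could pass that test alone. The size of the changes was ordinary, as the median absolute log2 difference was 0.14 for the 32 genes and 0.13 for all genes. The median signed difference was -0.06 for the early sterol genes, 0.09 for the late ones, -0.06 for sensing and transport (-0.011 without vehicle replicate 1, -0.10 without CBD replicate 2 and -0.021 without CBD replicate 3) and -0.11 for the fatty acid genes, beside -0.01 for all genes. The late sterol median was 0.044 without vehicle replicate 1. Differences between these groups of genes were not tested.

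**Figure D1:**
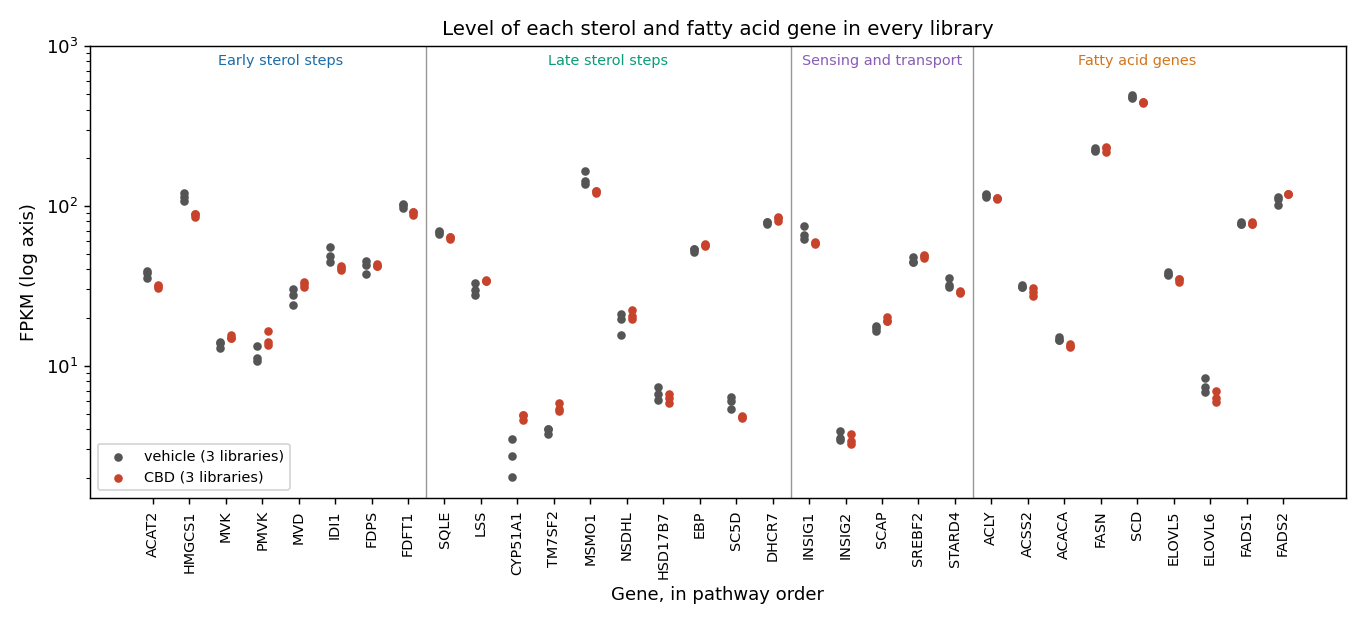
FPKM on a log axis (vertical) for the 32 genes in pathway order (horizontal), with each of the 3 vehicle libraries in grey and each of the 3 CBD libraries in red. Levels span from 3.54 FPKM (INSIG2) to 463 FPKM (SCD) on average, and the distance between groups is small beside the distance between genes.

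Early sterol enzymes lay on both sides of vehicle, 4 above and 4 below 0. HMGCS1, which makes HMG-CoA at the entry to the mevalonate pathway (chromosome 5, 43289395 to 43313512, GENCODE 29 gene span on GRCh38, minus strand), stood at 120, 108 and 114 FPKM in vehicle replicates 1 to 3 and at 88.7, 85.0 and 89.5 in CBD replicates 1 to 3. Every CBD library was below every vehicle library. The means were 114 ± 6.15 and 87.7 ± 2.37 FPKM (SD, n = 3), a ratio of 0.771 and a log2 difference of -0.37 ± 0.06 (SE). Its limma adjusted p of 0.0502 just missed the threshold and was the smallest of the 32. It passed under 7 of 21 alternatives, with adjusted p over all of them from 0.00437 to 0.210. ACAT2, the cytosolic thiolase that joins 2 acetyl-CoA before that step, had 37.8, 35.6 and 38.9 FPKM in vehicle and 32.1, 30.9 and 31.6 in CBD libraries. The groups did not overlap, and the log2 difference was -0.24 ± 0.05 (limma adjusted p = 0.0605).

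The 3 enzymes that turn mevalonate into isopentenyl diphosphate lay the other way. MVK, mevalonate kinase, had 14.1, 13.8 and 12.9 FPKM in vehicle and 14.9, 15.0 and 15.6 in CBD libraries. PMVK, phosphomevalonate kinase, had 11.1, 13.3 and 10.8 against 14.1, 16.5 and 13.4 FPKM, and MVD, the decarboxylase, 24.1, 30.1 and 27.5 against 33.3, 32.6 and 31.0 FPKM. In each of these genes the CBD values were all above the vehicle values, by a narrow margin in PMVK, where CBD replicate 3 nearly met vehicle replicate 2. None was called (log2 differences 0.14, 0.30 and 0.24, limma adjusted p = 0.121, 0.109 and 0.109). Without vehicle replicate 1 the MVD difference was 0.16.

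The steps from there to squalene were level or lower. IDI1, the isomerase of isopentenyl diphosphate, had 55.3, 44.6 and 48.9 FPKM in vehicle and 42.2, 39.5 and 41.0 in CBD libraries, with vehicle replicate 1 the highest (log2 difference -0.27 ± 0.08, limma adjusted p = 0.0914). FDPS, farnesyl diphosphate synthase, overlapped between groups at 37.4, 45.2 and 42.8 against 43.5, 41.8 and 42.1 FPKM. Its log2 difference was 0.03 (95% interval -0.15 to 0.20). FDFT1, squalene synthase, stood at 99.7 ± 3.04 and 90.5 ± 1.91 FPKM without overlap (log2 difference -0.14, limma adjusted p = 0.107). Summed over the 8 early genes, the level was 402, 387 and 397 FPKM in vehicle and 360, 353 and 352 in CBD libraries, a sum in which HMGCS1 and FDFT1 weigh most.

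Late sterol enzymes were also split, with 6 of 10 above 0 and 4 below. MSMO1, the sterol C4-methyl oxidase and at 136 FPKM the most abundant sterol gene of the list, had 166, 138 and 144 FPKM in vehicle and 120, 123 and 125 in CBD libraries. All CBD values were lower, with vehicle replicate 1 far above the rest (log2 difference -0.28 ± 0.07, limma adjusted p = 0.0786). SC5D, the sterol C5-desaturase, had 6.39, 5.35 and 6.03 against 4.71, 4.77 and 4.83 FPKM, again without overlap (-0.26 ± 0.07, adjusted p = 0.0751 by limma). SQLE, squalene epoxidase, the first oxygen-using step, stood at 68.4 ± 1.56 and 63.3 ± 1.13 FPKM (limma adjusted p = 0.142).

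TM7SF2, a sterol C14-reductase (chromosome 11, 65111845 to 65116384, plus strand), had 4.02, 4.05 and 3.72 FPKM in vehicle and 5.85, 5.39 and 5.22 in CBD libraries. Its CBD values were 1.40 times the vehicle values on average, with no overlap, and its log2 difference was 0.40 ± 0.06 (limma adjusted p = 0.0531). It passed under 6 alternatives and was not tested under the one that required a mean FPKM of at least 5. Its difference was 0.16, with overlapping groups, once a GC trend was removed. LSS, lanosterol synthase, stood at 30.2 ± 2.52 and 34.2 ± 0.326 FPKM, and EBP, the sterol isomerase, at 53.0 ± 1.29 and 56.9 ± 0.695 (limma adjusted p = 0.119 and 0.161). DHCR7, which makes cholesterol from 7-dehydrocholesterol, stood at 78.7 ± 1.55 and 83.1 ± 2.63 FPKM (limma adjusted p = 0.279). Its lowest CBD value, 80.2, was just above its highest vehicle value, 79.6 FPKM. NSDHL and HSD17B7, which act in the removal of the C4 methyl groups, overlapped between groups, at 18.7 ± 2.90 and 20.7 ± 1.37 FPKM and at 6.74 ± 0.655 and 6.26 ± 0.407 FPKM. For NSDHL the difference of 0.15 was 0.026 without vehicle replicate 1 and 0.24 without vehicle replicate 3.

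CYP51A1, the lanosterol demethylase (chromosome 7, 92112151 to 92134803, minus strand), had the largest difference of the 32. It stood at 2.03, 3.51 and 2.73 FPKM in vehicle and at 4.90, 4.59 and 4.90 in CBD libraries. The CBD libraries were alike and all higher, while the vehicle libraries spread widely. The ratio of means was 1.74 and the log2 difference 0.64 ± 0.14 (limma adjusted p = 0.0608, limma-voom 0.0147). Its level is uncertain. In GENCODE 29, 2982 of its 3584 exon bases (83.2%) are shared with other genes, 2844 of them with a protein-coding gene on the same strand (ENSG00000285772) that had a mean of 0.00904 FPKM. Of the 602 bases that no other gene shares, 366 lie in its protein-coding transcripts and 236 in a transcript with a retained intron. The rule for counting shared bases is not given in the sources used here. As ENSG00000285772 had almost no fragments, those on shared bases were not counted for both genes. If they were left out of both, the CYP51A1 value reflects only the 602 unshared bases, set against a length of 3584. It rests on 166 to 419 fragments per library. ACAT2 shares 52.3% of its exon bases with other genes, chiefly SOD2-OT1, SOD2 and TCP1 on the opposite strand. The next highest share was 18.6%, for FDPS.

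**Figure D2:**
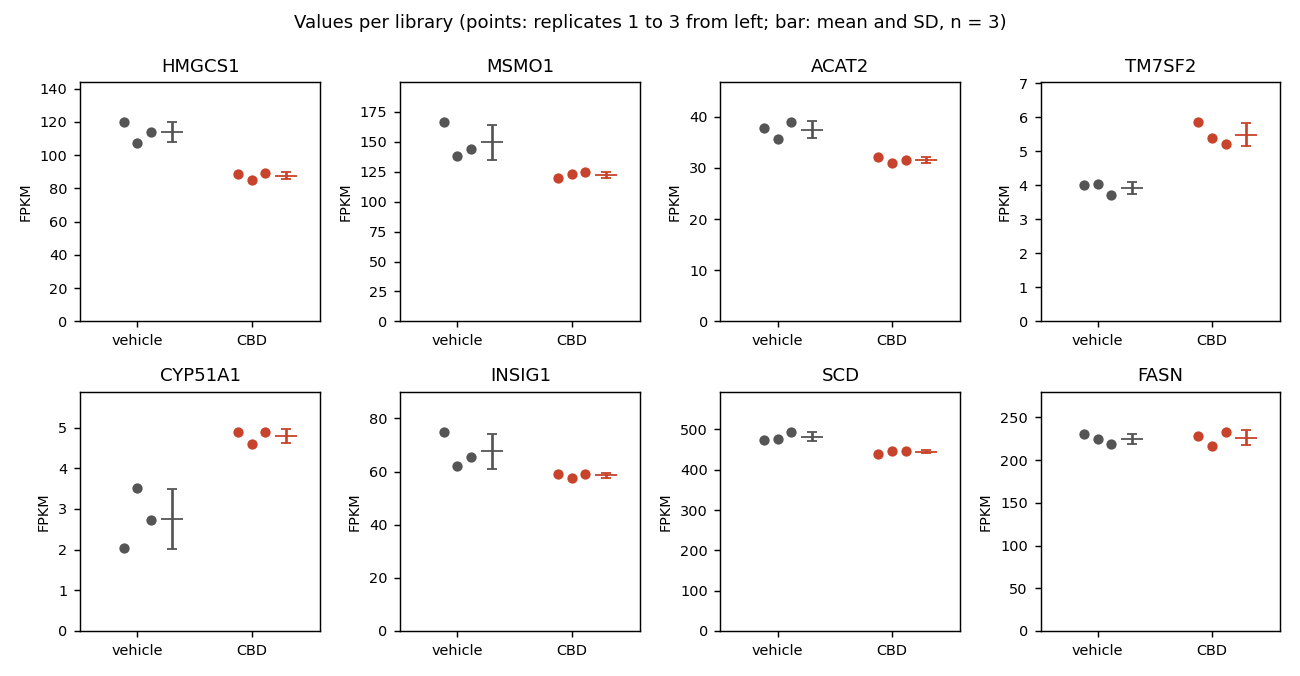
FPKM per library (vertical, from 0) for 8 genes, with vehicle in grey and CBD in red, points for replicates 1 to 3 from the left and a bar for the mean and SD (n = 3). The groups separate in all panels but FASN, and vehicle replicate 1 is the extreme vehicle value of HMGCS1, MSMO1, INSIG1 and CYP51A1.

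Among the sensing and transport genes, INSIG1, itself a well-known SREBP target and the anchor of SCAP, had 75.1, 62.3 and 65.6 FPKM in vehicle and 59.2, 57.4 and 59.0 in CBD libraries. All CBD values were lower, with a log2 difference of -0.20 ± 0.07 (limma adjusted p = 0.12). Without vehicle replicate 1 the INSIG1 difference was -0.12, and -0.080 with a GC trend also removed. STARD4, a carrier of cholesterol between membranes, stood at 32.9 ± 2.19 and 28.9 ± 0.610 FPKM, also without overlap (-0.18, limma adjusted p = 0.1). SCAP stood at 17.1 ± 0.632 and 19.4 ± 0.681 FPKM, all CBD values higher (0.17, limma adjusted p = 0.0916). SREBF2 overlapped, with 44.5, 48.1 and 44.4 FPKM in vehicle and 48.9, 49.5 and 47.5 in CBD libraries, a log2 difference of 0.09 (95% interval -0.03 to 0.21). INSIG2 overlapped at 3.63 ± 0.265 and 3.45 ± 0.256 FPKM.

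Fatty acid genes included the most abundant of the list. SCD, which makes monounsaturated fatty acids, had 474, 477 and 495 FPKM in vehicle and 440, 447 and 447 in CBD libraries. Every CBD value was lower, with a ratio of means of 0.923 (log2 difference -0.12 ± 0.05, limma adjusted p = 0.147). FASN overlapped at 231, 225 and 219 against 229, 216 and 233 FPKM, a log2 difference of 0.01 (95% interval -0.11 to 0.13). ACLY, which supplies cytosolic acetyl-CoA from citrate, stood at 117 ± 2.64 and 111 ± 0.598 FPKM. ACACA, acetyl-CoA carboxylase, stood at 14.7 ± 0.333 and 13.4 ± 0.203 FPKM, and ACSS2, which makes acetyl-CoA from acetate, stood at 31.4 ± 0.451 in vehicle and at 27.3, 28.8 and 30.8 in the CBD libraries. These 3 genes lay lower in every CBD library and were not called (limma adjusted p = 0.281, 0.116 and 0.195). Without CBD replicate 1 the ACSS2 difference of -0.11 was -0.075.

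The elongases ELOVL5 and ELOVL6 stood at 37.7 ± 0.754 and 34.4 ± 0.748 FPKM and at 7.51 ± 0.759 and 6.39 ± 0.538 FPKM. ELOVL5 did not overlap between groups and ELOVL6 did (limma adjusted p = 0.109 and 0.155). The neighbouring desaturase genes FADS1 and FADS2, which act in turn in making long polyunsaturated fatty acids, differed in pattern. FADS1 was level at 77.4 ± 1.35 and 77.5 ± 1.10 FPKM (95% interval of the log2 difference -0.10 to 0.10). FADS2 had 101, 113 and 110 FPKM in vehicle and 118, 119 and 119 in CBD libraries (0.13, limma adjusted p = 0.147). Without vehicle replicate 1 the difference was 0.088 for FADS2, and for ELOVL6 it was -0.13 in place of -0.20. FADS1 and FADS2 overlap by 490 exon bases on opposite strands, and the strand setting of the counting is not given in the sources used here. Of the 9 fatty acid genes, 5 lay lower in all CBD libraries and FADS2 alone lay higher, where 21.9% and 18.7% of all genes did.

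**Figure D3:**
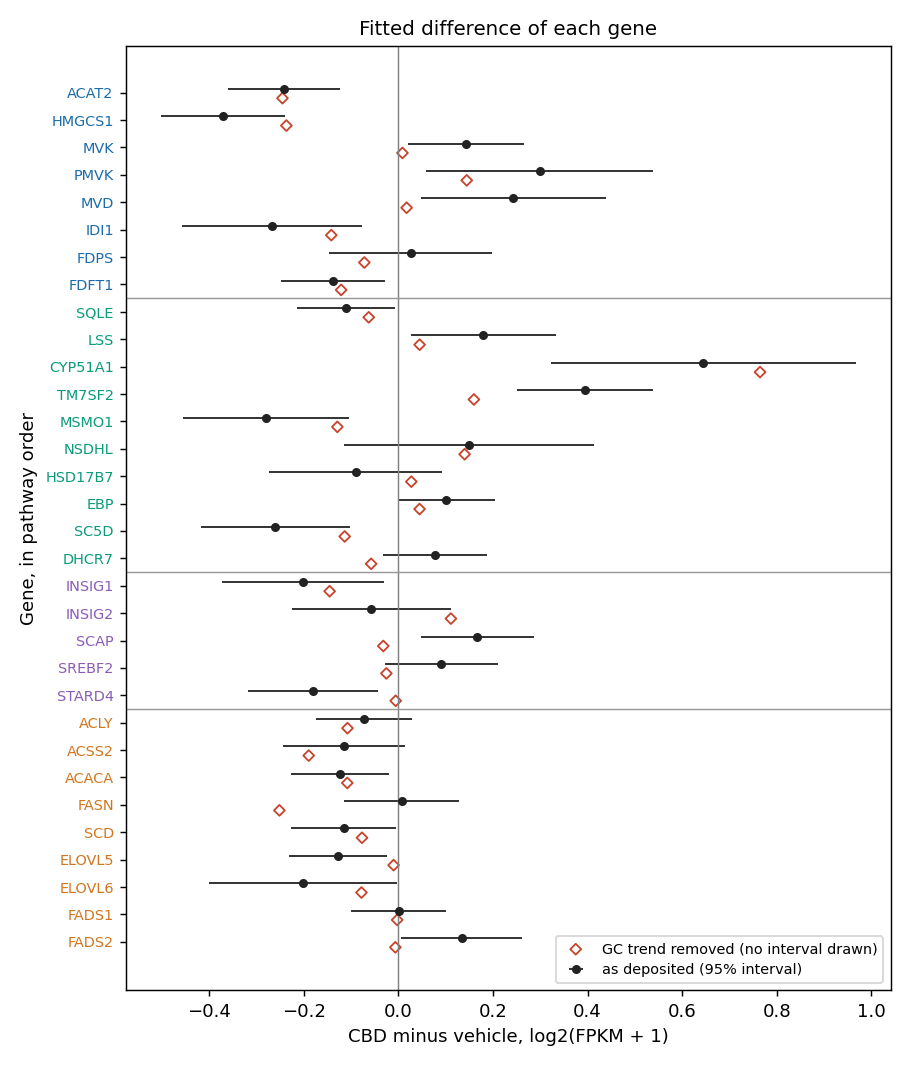
Fitted log2(FPKM + 1) difference of CBD minus vehicle (horizontal) for the 32 genes in pathway order (vertical), as deposited with 95% intervals (black) and with the GC trend removed (red diamonds). Each arm has genes on both sides of 0 as deposited, and with the trend removed MVK and MVD lie near 0, FASN at -0.25 and CYP51A1 at 0.76.

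The direction of these genes went with the GC content of their transcripts. Averaged over counted fragments, transcript GC content ran from 48.9% (replicate 1) to 49.7% among vehicle libraries and stood at 50.1% throughout the CBD group, so it differs along with the groups. Of 13 listed genes with a transcript GC content below 48.1%, the median of all tested genes, 12 lay below 0, CYP51A1 being the exception. Of the 19 at or above it, 14 lay above 0. Over all genes 80.3% below that GC content lay below 0 and 75.0% at or above it lay above 0. The Spearman correlation of GC content with the log2 difference was 0.73 over the 32 genes and 0.66 over all genes. Without vehicle replicate 1 it was 0.72 and 0.57. These correlations are across genes measured in the same 6 libraries, which are not independent. MSMO1, SC5D and HMGCS1, with 38.1%, 38.6% and 40.2% GC, were among the lowest in difference, and TM7SF2 and MVD, with 64.2% and 63.7%, among the highest. The ends of the GC range were less extreme in difference. STARD4 (34.2%) had -0.18, INSIG2 (35.4%) -0.06 and FASN (65.3%) 0.01.

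**Figure D4:**
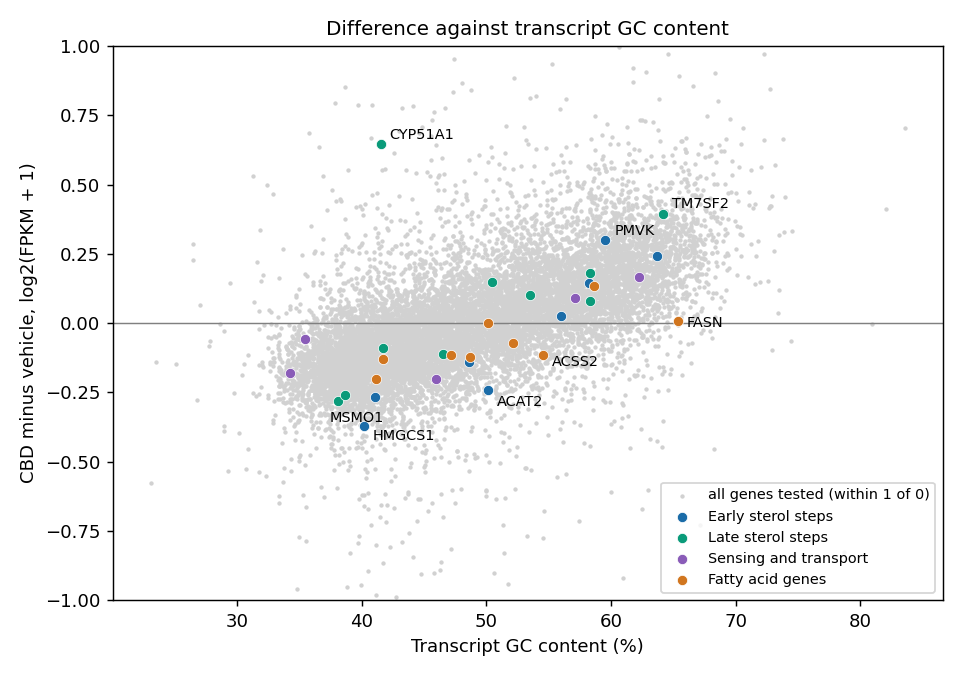
Log2(FPKM + 1) difference of CBD minus vehicle (vertical) against transcript GC content (horizontal, %), with all tested genes within 1 of 0 in grey and the 32 genes coloured by pathway arm. Most of the 32 follow the grey cloud, while CYP51A1 lies above it and HMGCS1, ACAT2, ACSS2 and FASN lie toward its lower edge.

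With a loess trend in GC content removed from each library, 0 of the 32 genes were called by limma, against 0.0639% of all genes, and 12 had an unadjusted p under 0.05. Of these 1 was higher and 11 lower, where 9.24% and 9.87% of all genes were. The 3 CBD values then lay above all vehicle values in 3 genes and below them in 13, against 12.9% and 13.8% of all genes. CYP51A1, EBP and INSIG2 were the 3 above. In the early sterol arm ACAT2 and HMGCS1 each had a difference of -0.24 (limma adjusted p = 0.0824 and 0.0789), and IDI1 and FDFT1 of -0.14 and -0.12. MVK and MVD came to 0.01 and 0.02, and PMVK to 0.14. In the late arm MSMO1 had -0.13, SC5D -0.11 and SQLE -0.06, and LSS 0.05. All 9 fatty acid genes lay below 0, as did 6302 of 12510 genes in all, but FADS1 (-0.0023), FADS2 (-0.0062) and ELOVL5 (-0.0099, with overlapping groups) were close to 0, and ELOVL6 (-0.08) overlapped too. The other 5 were lower in every CBD library, FASN (65.3% GC) with -0.25, ACSS2 with -0.19, ACLY and ACACA with -0.11 each and SCD with -0.08. FASN was thus level as deposited and lower with the trend removed, and neither value was called (limma adjusted p = 0.935 and 0.177). INSIG1 had -0.15, STARD4 -0.01, SCAP -0.03 and SREBF2 -0.03. Whether the GC difference between the groups is technical or part of the response to CBD cannot be told apart in this design.

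Of 37 further genes of SREBP processing, sterol handling and lipid synthesis, 36 were tested, and limma called 0 (14 at an unadjusted p under 0.05, 6 higher and 8 lower, and 9 by limma-voom). At the unadjusted p this is 38.9%, near the 31.4% of all genes, and limma-voom called 13.9% of all genes. In 24 of the 36 the groups did not overlap, 8 higher and 16 lower. That is 66.7%, against 40.7% of all genes, so such separation was not particular to the 32 listed genes. Their median log2 difference was -0.06, beside -0.01 for all genes. SREBF1 had 52.9, 60.4 and 53.7 FPKM in vehicle and 64.8, 67.0 and 68.6 in CBD libraries, all CBD values higher (0.26 ± 0.06, limma adjusted p = 0.0690). With its GC content of 62.8%, it came to 0.05 with the trend removed. FADS3, a relative of FADS1 and FADS2 beside them on chromosome 11, had 21.2 ± 1.84 and 27.2 ± 0.607 FPKM (0.35 ± 0.07, limma adjusted p = 0.0588) and 0.25 with the trend removed. ACSL4, which activates polyunsaturated fatty acids, had 21.3 ± 1.99 and 16.5 ± 0.525 FPKM (-0.34 ± 0.07, limma adjusted p = 0.0605) and -0.19 with the trend removed. GGPS1, which makes geranylgeranyl diphosphate from the farnesyl diphosphate of FDPS, had 5.03 ± 0.411 and 3.89 ± 0.291 FPKM (-0.30, limma adjusted p = 0.0702) and -0.17 with the trend removed, when its groups overlapped. LBR, a second sterol C14-reductase, had 12.4 ± 0.862 and 10.4 ± 0.361 FPKM (-0.24, limma adjusted p = 0.0734). With 37.8% GC it came to -0.088 with the trend removed, with overlapping groups. HSD17B12, a reductase of fatty acid elongation, had 7.52 ± 0.991 and 5.80 ± 0.160 FPKM (-0.32, limma adjusted p = 0.0788) and -0.17 with the trend removed.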

How the data were processed

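The authors deposited a single table of FPKM values, with a column for each library per the file headers. HISAT2 2.0.5 and featureCounts 1.5.0-p3 are named in the submitters' processing notes, while build, annotation, strand setting and filters are not given in the sources used here. All 58735 identifiers were found in GENCODE 29. FPKM times exon-union length and a scale for the library came out whole for 100% of values (tolerance 0.01), with 3 fragments worth 0.126 to 0.153 FPKM at 1 kb, a limit of counting error only. Here, log2(FPKM + 1) of the 12517 genes with mean FPKM of at least 1 was fitted with limma 3.58.1 in R 4.3.3 (group only, trend in the variance prior, two-sided, Benjamini-Hochberg). GC content is that of each gene's longest GENCODE transcript; its loess trend (span 0.3) was removed per library. Python 3.11.15 was used for tables. The pipeline was also run on simulated counts whose set changes were larger than most of those seen here. That run does not show how often changes of the present size would be called. Samples were grouped by their treatment tag and numbered as in their titles. The genes and lists were chosen with earlier results of these data known. The rule for names was all 32 genes and, of the further genes, those called or else the 6 with the smallest p, plus SREBF1. Alternatives were 19 settings and 2 added after seeing the data (GC trend removed without vehicle replicate 1, and with the replicate block).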

Additional observations from a re-analysis of the deposited data

How the results depend on the processing

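No listed gene was called by limma as deposited, with 32 genes higher and 12 lower in all (21 listed and 3926 of all genes at an unadjusted p under 0.05). Listed genes called higher and lower were 1 and 1 with median-ratio scaling, quantile normalization or a robust variance prior (HMGCS1 and TM7SF2 each time). They were 0 and 2 at a mean FPKM of at least 5, where 29 listed genes and 7275 in all were tested. By limma-voom they were 2 and 5, and with library quality weights 9 and 13. The counts over all genes, given below, rose under each of these settings too. Leaving out a library gave 0 to 5 higher and 0 to 6 lower, the highest without vehicle replicate 2. Over all genes the counts were 58 and 16 at pseudocount 5, 427 and 305 at a mean FPKM of at least 5, 56 and 17 with median-ratio scaling, 2 and 2 at the same FPKM sum, 54 and 19 after quantile normalization, 0 and 1 without the variance trend, 95 and 40 with a robust prior, 2112 and 2140 with library weights, 909 and 836 by limma-voom, 4 and 4 with the GC trend removed, and 9 and 6 with it removed without vehicle replicate 1. They were 0 and 0 by limma without the low-value filter (4670 genes at an unadjusted p under 0.05) and 0 to 1260 and 0 to 1072 when a library was left out. The replicate numbers did not pair the libraries (correlations of same-numbered deviations -0.0027, 0.052 and 0.024), and the replicate block gave 0 higher and 0 lower by limma (3676 genes at an unadjusted p under 0.05), also with the GC trend removed (2281).

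The early sterol median of -0.06 was -0.10 after quantile normalization and with the GC trend removed (-0.10 also without vehicle replicate 1 or with the block), and -0.086 to -0.040 when a library was left out. The late sterol median of 0.09 was -0.0058 at a mean FPKM of at least 5, where CYP51A1 and TM7SF2 are not tested, 0.033 after quantile normalization, 0.034 with library weights, 0.036 with the GC trend removed (0.027 without vehicle replicate 1, 0.036 with the block) and 0.044 to 0.10 when a library was left out. The fatty acid median of -0.11 was -0.10 at pseudocount 5 or with median-ratio scaling, -0.13 at the same FPKM sum, -0.12 after quantile normalization, -0.11 with weights, -0.078 with the GC trend removed (-0.088 without vehicle replicate 1, -0.078 with the block) and -0.12 to -0.075 when a library was left out. The sensing and transport median of -0.06 was -0.030 at pseudocount 5, -0.024 with library weights, -0.025 with the GC trend removed (-0.0044 without vehicle replicate 1) and -0.10 to -0.011 when a library was left out. Listed genes apart upward numbered 10 as deposited and 3 with the GC trend removed, where 18.7% and 12.9% of all genes were. The block cannot change this count or the medians above. Without vehicle replicate 1 the count was 10, and 6 with the GC trend also removed. With a library fewer the groups separate more easily, so those counts are not on the same footing. The cause of these shifts was not tested.

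Of the 32 genes, 22 kept their direction under every alternative that tested them (CYP51A1 and TM7SF2, among these, and INSIG2 were not tested at a mean FPKM of at least 5). The fitted difference stays the same under another low-value filter, another variance prior or the replicate block, so those alternatives could not turn it. With the GC trend removed, with or without the block, the direction turned for FDPS (-0.072), HSD17B7 (0.028), DHCR7 (-0.057), INSIG2 (0.11), SCAP (-0.032), SREBF2 (-0.025), FASN (-0.25), FADS1 (-0.0023) and FADS2 (-0.0062). Without vehicle replicate 1 as well, it turned for MVD (-0.012), FDPS (-0.12), HSD17B7 (0.057), DHCR7 (-0.035), INSIG2 (0.11), SREBF2 (-0.0081), FASN (-0.17) and FADS2 (-0.013). FASN and FADS1 turned at the same FPKM sum (-0.0091 and -0.015) and after quantile normalization (-0.051 and -0.061), and FDPS with library weights (-0.0099). When a library was left out, FDPS ran from -0.050 to 0.084, FASN from -0.016 to 0.038 and FADS1 from -0.011 to 0.015. Counting error weighs most on CYP51A1, TM7SF2, INSIG2 and PMVK, whose lowest library held 166, 249, 263 and 270 fragments.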
